A study of Mus musculus with 4 samples.

Results

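The complement components and their inhibitor were followed as 9 genes chosen by symbol, C1qa, C1qb, C1qc, C1ra, C1s1, Masp1, C4b, C3 and Serping1, of 31053 genes in the files. Single-cell RNA sequencing (10x 3′ v3) was done on the stromal vascular fraction, that is, fat tissue freed of its mature adipocytes, taken from C57BL/6 mice aged 8 weeks at the fourth inguinal depot, which holds the mammary ducts. There were 2 libraries of mice held for 24 h at 4 °C (cold) and 2 libraries of mice held for 24 h at room temperature, with no further allele or agent in the labels. Libraries are counted as replicates, and since nothing says whether they came from separate animals, the p-values measure only the spread between these libraries.

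Complement is a set of plasma and tissue proteins that tag particles and cells for removal. In the classical pathway C1q, built from the C1qa, C1qb and C1qc chains, binds a target and carries the proteases C1r and C1s. C1s cuts C4 and C2, after which the cut products split C3. Masp1 is a protease of the lectin pathway, which is started by mannose-binding lectin and ficolins and meets the classical pathway at C4 and C2. Serping1, the C1 inhibitor, blocks C1r, C1s and the lectin-pathway proteases. Most plasma complement comes from liver, while C1q is known to be made largely by macrophages.

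The genes lie in a few loci on GRCm38, by the GENCODE annotation. C1qa (4:136895917-136898803), C1qc (4:136889804-136893065) and C1qb (4:136880129-136886187) are neighbours on the minus strand of chromosome 4. C1ra (6:124512405-124523443, plus strand) and C1s1 (6:124530345-124542359, minus strand) are neighbours on chromosome 6. C4b (17:34728380-34743882) and C3 (17:57203970-57228136) lie on the minus strand of chromosome 17, Masp1 (16:23449417-23520815) on that of chromosome 16 and Serping1 (2:84765387-84775444) on that of chromosome 2. The 250 bases before RefSeq's start, on GRCm38.p6, are shown for those genes of both loci that its table holds, since the genes of each locus went together across cell classes. They are read 5′ to 3′ on the gene's strand, from 4:136886201-136886450 for C1qb, 4:136892915-136893164 for C1qc, 6:124512371-124512620 for C1ra and 6:124542360-124542609 for C1s1. RefSeq's starts differ from GENCODE's for some genes, so part of the C1ra and C1qc stretches lies within the GENCODE spans.
C1qb: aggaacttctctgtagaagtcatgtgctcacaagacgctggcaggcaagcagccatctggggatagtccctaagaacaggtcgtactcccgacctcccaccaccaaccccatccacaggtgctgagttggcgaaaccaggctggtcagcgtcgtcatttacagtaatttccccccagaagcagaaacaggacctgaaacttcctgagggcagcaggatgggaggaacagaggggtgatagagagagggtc
C1qc: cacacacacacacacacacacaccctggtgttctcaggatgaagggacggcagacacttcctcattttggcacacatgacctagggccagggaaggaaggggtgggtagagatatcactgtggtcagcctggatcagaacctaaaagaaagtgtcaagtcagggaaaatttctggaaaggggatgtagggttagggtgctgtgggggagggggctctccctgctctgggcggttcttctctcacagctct
C1ra: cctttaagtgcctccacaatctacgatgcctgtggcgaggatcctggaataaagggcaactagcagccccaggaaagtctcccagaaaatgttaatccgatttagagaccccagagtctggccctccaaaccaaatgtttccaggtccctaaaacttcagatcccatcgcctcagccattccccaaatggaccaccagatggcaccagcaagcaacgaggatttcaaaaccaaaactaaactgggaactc
C1s1: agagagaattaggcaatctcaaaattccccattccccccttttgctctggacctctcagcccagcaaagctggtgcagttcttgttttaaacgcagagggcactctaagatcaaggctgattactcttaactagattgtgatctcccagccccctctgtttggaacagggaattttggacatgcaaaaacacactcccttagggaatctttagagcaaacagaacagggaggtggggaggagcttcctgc
These stretches and the 50 bases after each start were searched on both strands for a STAT-type motif (TTCNNNGAA), an interferon-stimulated response element and a glucocorticoid response element. C1ra held TTCCCTGAA from base 33 after its start. The other promoters searched, those of C1qb, C1qc, C1s1 and C3, held no match. The STAT-type motif stands in 8.30% of 32851 promoters of that length, the interferon-type element in 3.44% and the glucocorticoid-type element in 0.00913%.

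After filters on genes, mitochondrial share and doublets, the cold libraries kept 3929 and 2971 cells and the room-temperature libraries 5232 and 3065. A library held between 32985063 and 50428287 UMIs in kept cells. UMIs, counts of distinct captured transcript ends, are given as CPM, counts scaled to the same total in each class or library, with no correction for gene length since 3′ ends were counted. The cells formed 43 clusters and 13 classes. A class name means that its cells carry that type's markers, and some named clusters carry markers of another type too. The complement genes were left out of both the clustering and the markers. Libraries shared 5 to 10 cell barcodes a pair. Macrophages and monocytes made up 14.8% and 12.5% of cells in cold, against 28.7% and 29.6% at room temperature. Fibroblasts and adipose progenitors made up 18.3% and 15.8% in cold, against 25.5% and 11.3% at room temperature, and epithelium 23.0% and 24.1%, against 12.7% and 14.9%. A change was called at an adjusted p under 0.05 (edgeR's quasi-likelihood test on summed UMIs, Benjamini-Hochberg adjustment over all genes tested in the class). Over the 9 classes tested, 1 of 49 tests of a member passed, Masp1 in alveolar cells. Masp1 there met edgeR's low-count filter through its cold libraries alone. Over all genes tested, the share called in a class ran from 0.0% in B cells to 2.98% in fibroblasts.

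The sources were split sharply. In each library the C1q chains came almost wholly from macrophages, the proteases C1ra and C1s1, C3 and Serping1 mostly from fibroblasts, and C4b from both. Of the C1qa UMIs, 98.0 ± 0.944% in cold and 98.7 ± 0.0721% at room temperature lay in macrophages (SD, n = 2 libraries each). C1qb had 97.2 ± 1.10% in cold and 98.1 ± 0.381% at room temperature there, and C1qc 97.8 ± 0.547% and 98.3 ± 0.100%. Fibroblasts held 95.8 ± 0.903% of Serping1 UMIs in cold and 96.3 ± 1.17% at room temperature. They held 95.2 ± 1.38% and 94.2 ± 4.33% of C3, 89.3 ± 2.39% and 88.9 ± 3.39% of C1s1, and 88.0 ± 0.873% and 87.7 ± 4.46% of C1ra. For 6 of these 7 genes the group means lay closer together than the larger of the SDs, and for C1qc slightly farther apart. The split of C4b differed more. Fibroblasts gave 64.7% and 70.1% of its UMIs in the cold libraries, against 61.0% and 40.3% at room temperature. Macrophages gave 30.2% and 26.4%, against 36.9% and 54.8%. The groups do not overlap in either source, but the room-temperature libraries were far apart, as were their fibroblast numbers. The shares are descriptions and were not tested.

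**Figure D1:**
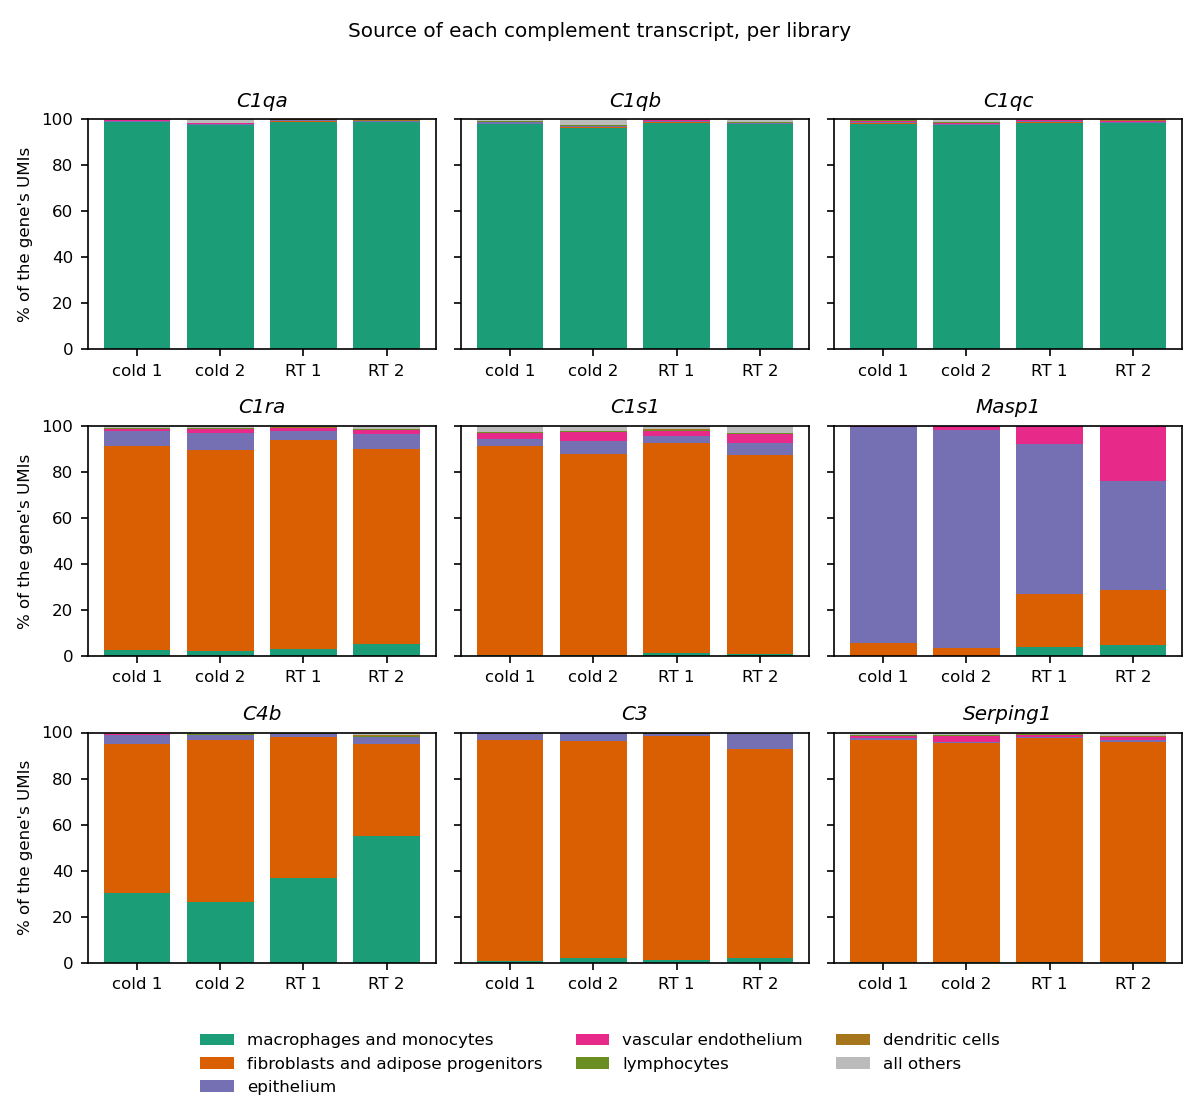
Stacked bars give the percentage of each gene's UMIs that came from each source (vertical axis, 0 to 100%) in the libraries cold 1, cold 2, RT 1 and RT 2 (RT, room temperature), 1 panel a gene. C1q chains are nearly all from macrophages, C4b has both a macrophage and a fibroblast part, and Masp1 is mostly epithelial in cold.

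Within macrophages the C1q chains were at like levels in cold and at room temperature. C1qa had 5316 and 4557 CPM in cold macrophages, against 5032 and 3870.3 CPM at room temperature. C1qb had 4987 and 4323 CPM, against 4154 and 3315 CPM. C1qc had 3237 and 2888 CPM, against 2975 and 2395 CPM. The groups overlap for C1qa and C1qc, while both cold libraries lie above both room-temperature ones for C1qb. The share of all genes that do not overlap is not given. The log2 fold changes, cold over room temperature, were 0.14 ± 0.19 (SE, n = 2 libraries each here and below), 0.31 ± 0.18 and 0.18 ± 0.18. With edgeR's quasi-likelihood test none of them was called (adjusted p 0.834, 0.557 and 0.741), in a class in which 0.472% of 11013 genes were called. In cold macrophages the chains made up 39.3% and 38.7% (C1qa), 36.8% and 36.7% (C1qb) and 23.9% and 24.5% (C1qc) of the C1q UMIs. At room temperature C1qa made up 41.4% and 40.4% and C1qb 34.2% and 34.6%, and C1qc the rest. All 3 chains had a UMI in 78.4% and 72.2% of cold macrophages, against 78.6% and 69.3% of those at room temperature. In T cells, which are not known to make C1q, 0.314% and 0% of cold cells and 0.680% and 0% of room-temperature cells had all 3. The counts of 0, in cold replicate 2 and in room-temperature replicate 2, allow up to 0.548% and 0.718% of those T cells to have a UMI of all 3.

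Over the whole library the C1q chains had lower values in cold. C1qa had 522 and 363 CPM in cold, against 969.6 and 722 CPM at room temperature. C1qb had 494 and 348 CPM, against 803 and 624 CPM, and C1qc 319.8 and 230.2 CPM, against 576 and 448 CPM. The groups do not overlap for any chain, a description given without the share of all genes that do not overlap. The log2 fold changes were -0.93 ± 0.27, -0.76 ± 0.25 and -0.90 ± 0.25, none called by edgeR (adjusted p 0.162, 0.189 and 0.155). By edgeR 0.0% of 16001 genes were called at this level, and 3724 had an unadjusted p under 0.05. DESeq2 called C1qa and C1qc (adjusted p 0.0224 and 0.0185). The macrophage share of cells moved the same way, as given above, and so did the macrophage share of UMIs, 9.70% and 7.76% in cold, against 19.0% and 18.4% at room temperature.

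The flat class value held together macrophage clusters that differed. The largest was led by Pf4, Folr2, Cd209f and F13a1 beside the C1q chains themselves. There C1qa had 7336 and 6730.0 CPM in cold, against 6745 and 5819 CPM at room temperature. The groups overlap (0.16 ± 0.18 on the log2 scale, adjusted p 0.725 with edgeR, 2.14% of 9414 genes called). C1qb had 6693 and 6107 CPM in cold, against 5329 and 4455 CPM at room temperature (0.39 ± 0.18, adjusted p 0.344, edgeR). C1qc had 4449 and 4185 CPM in cold, against 3965 and 3767 CPM (0.16 ± 0.17, adjusted p 0.700, edgeR). For both of these chains the cold libraries lie above the room-temperature ones, without the share of all genes that do not overlap. The cluster held 350 and 197 cells in cold and 881 and 203 at room temperature. A smaller cluster with the same leading genes held 14 and 19 cells in cold, 2.40% and 5.12% of the class, against 53 and 227 cells at room temperature, 3.53% and 25.1% of the class. It had too few cold cells to test alone, and in room-temperature replicate 2 it held more cells than the larger one. With both clusters joined, the log2 fold changes of C1qa, C1qb and C1qc were 0.082 ± 0.16, 0.30 ± 0.16 and 0.13 ± 0.15 (adjusted p 0.881, 0.441 and 0.761, edgeR; 0.816% of 9931 genes called). Another cluster, led by Lyz1, Ear2 and Ccr2, had far less. Its C1qa value was 284 and 199 CPM in cold, against 395 and 452 CPM at room temperature. C1qa fell there by 0.78 ± 0.15 on the log2 scale (adjusted p 0.00347, edgeR). C1qc had 224 and 162 CPM in cold, against 275 and 310.2 CPM at room temperature, and fell by 0.57 ± 0.15 (adjusted p 0.0348, edgeR). C1qb had 764 and 550.3 CPM in cold, against 856 and 909 CPM at room temperature, and was not called (-0.41 ± 0.13, adjusted p 0.0823, edgeR). The groups do not overlap for any of the 3 chains, again without the share of all genes that do not overlap. C4b had 46.3 and 29.2 CPM in cold, against 76.7 and 82.0 CPM at room temperature, and fell by 1.00 ± 0.23 (adjusted p 0.0125, edgeR). So 3 of 5 members tested fell, where 3.06% of 8039 genes were called lower in cold. The cluster had 123 and 82 cells in cold and 278 and 223 at room temperature, so the cold values of C1qa rest on 288 and 116 UMIs. C1qc was not called without cold replicate 2 (adjusted p 0.256) or room-temperature replicate 2 (0.116), nor C4b without cold replicate 2 (0.0717), by edgeR; C1qa was called each time.

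A smaller cluster, led by Lyz2, Chil3 and Il1b, showed lower C1q values that did not pass the test. C1qb had 569 and 861 CPM in cold, against 2186 and 1118 CPM at room temperature. The log2 fold changes of C1qa, C1qb and C1qc were -1.01 ± 0.28, -1.16 ± 0.31 and -1.16 ± 0.27 (adjusted p 0.218, 0.202 and 0.127, edgeR), in a cluster in which 0.5% of 4197 genes were called. It held 23 and 32 cells in cold and 92 and 92 at room temperature. Of its cells, 26.1% and 12.5% had all 3 chains in cold, against 41.3% and 21.7% at room temperature. The difference of the cold effect between clusters was tested directly, with the library as block, after these values had been seen. C1qa, C1qb and C1qc had a lower cold effect in the Lyz1/Ear2 cluster than in the Folr2 cluster, by -1.03 ± 0.19, -0.88 ± 0.17 and -0.81 ± 0.18 (adjusted p 0.00381, 0.00715 and 0.0212, edgeR). Against the Folr2 cluster the Chil3/Il1b cluster gave -1.21 ± 0.27, -1.59 ± 0.28 and -1.38 ± 0.27 (adjusted p 0.0363, 0.00996 and 0.0188, edgeR). The shares of genes called in these 2 comparisons were 1.12% and 0.365%. With the smaller cluster of the same leading genes joined to the Folr2 cluster, all 3 chains were again called in both comparisons (adjusted p 0.00928 to 0.0338 and 0.00818 to 0.0426, edgeR), where 0.665% and 0.417% of genes were called. Without cold replicate 2, no chain was called in the first comparison and C1qb alone was called in the other, and without cold replicate 1 none was called in the other.

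**Figure D2:**
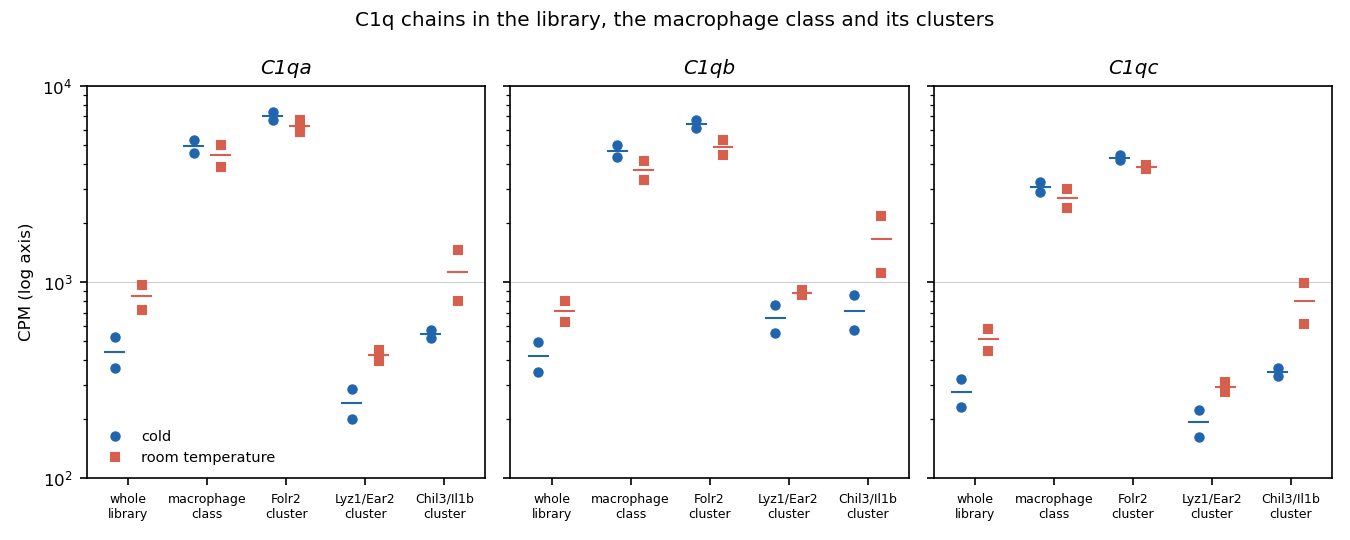
CPM of the C1q chains (vertical log axis) in the whole library, the macrophage class and 3 of its clusters, cold (circles) left of room temperature (squares), 1 point a library with a line at the mean. C1qa values in the whole library lie at 363 to 522 CPM in cold and 722 to 969.6 CPM at room temperature, while those in the Folr2 cluster overlap between the groups.

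Outside macrophages the C1q chains were at a low level in every class with enough cells to test. Summed over the chains, fibroblasts had 16.1 and 13.5 CPM in cold, against 38.8 and 22.4 CPM at room temperature, and macrophages 13540 and 11768 CPM, against 12160 and 9581 CPM. T cells had 28.0 and 10.2 CPM, against 62.1 and 27.7 CPM. Hormone-sensing luminal cells had 13.3 and 8.39 CPM, against 33.5 and 18.4 CPM. Dendritic cells had 12.2 and 3.85 CPM, against 71.9 and 88.3 CPM. In those 4 classes no chain was called in edgeR's main fit, with 2.98%, 2.35%, 0.00772% and 0.0897% of all genes called. With the replicate number as block, edgeR called every chain lower in cold in dendritic cells (adjusted p 0.000287 to 0.00947) and in T cells (0.00409 to 0.00468). It also called C1qb in fibroblasts (0.0446). With no low-count filter it called every chain lower in cold in dendritic cells, T cells and fibroblasts. In hormone-sensing cells no chain was called at either setting. Log2 fold changes of C1qa, C1qb and C1qc in dendritic cells were -2.62 ± 0.52, -4.42 ± 0.69 and -3.42 ± 0.59 (adjusted p 0.221, 0.127 and 0.192, edgeR), on 7 and 3 C1q UMIs in cold, and DESeq2 called C1qb. Vascular endothelium had the higher mean in cold, with 132 and 68.5 CPM, against 78.9 and 20.7 CPM at room temperature, and the groups overlap. None was called there in edgeR's main fit (0.0298% of genes called). With no low-count filter edgeR called C1qa and C1qb higher in cold there (adjusted p 0.0441 and 8.92e-06). The part of free RNA in these low levels was not tested. A C1qa UMI was found in 3.25% and 2.38% of cold T cells, against 7.03% and 8.37% of room-temperature T cells, and in 82.2% and 75.2%, against 83.8% and 74.5%, of macrophages. Median depth was 4702 and 6967 UMIs in cold T cells and 4082 and 7433 at room temperature, and 8119 and 7008, against 6072.5 and 5962, in macrophages. With each cell thinned to 2000 UMIs the T cell shares were 1.11% and 0.937%, against 4.19% and 2.31%.

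**Figure D3:**
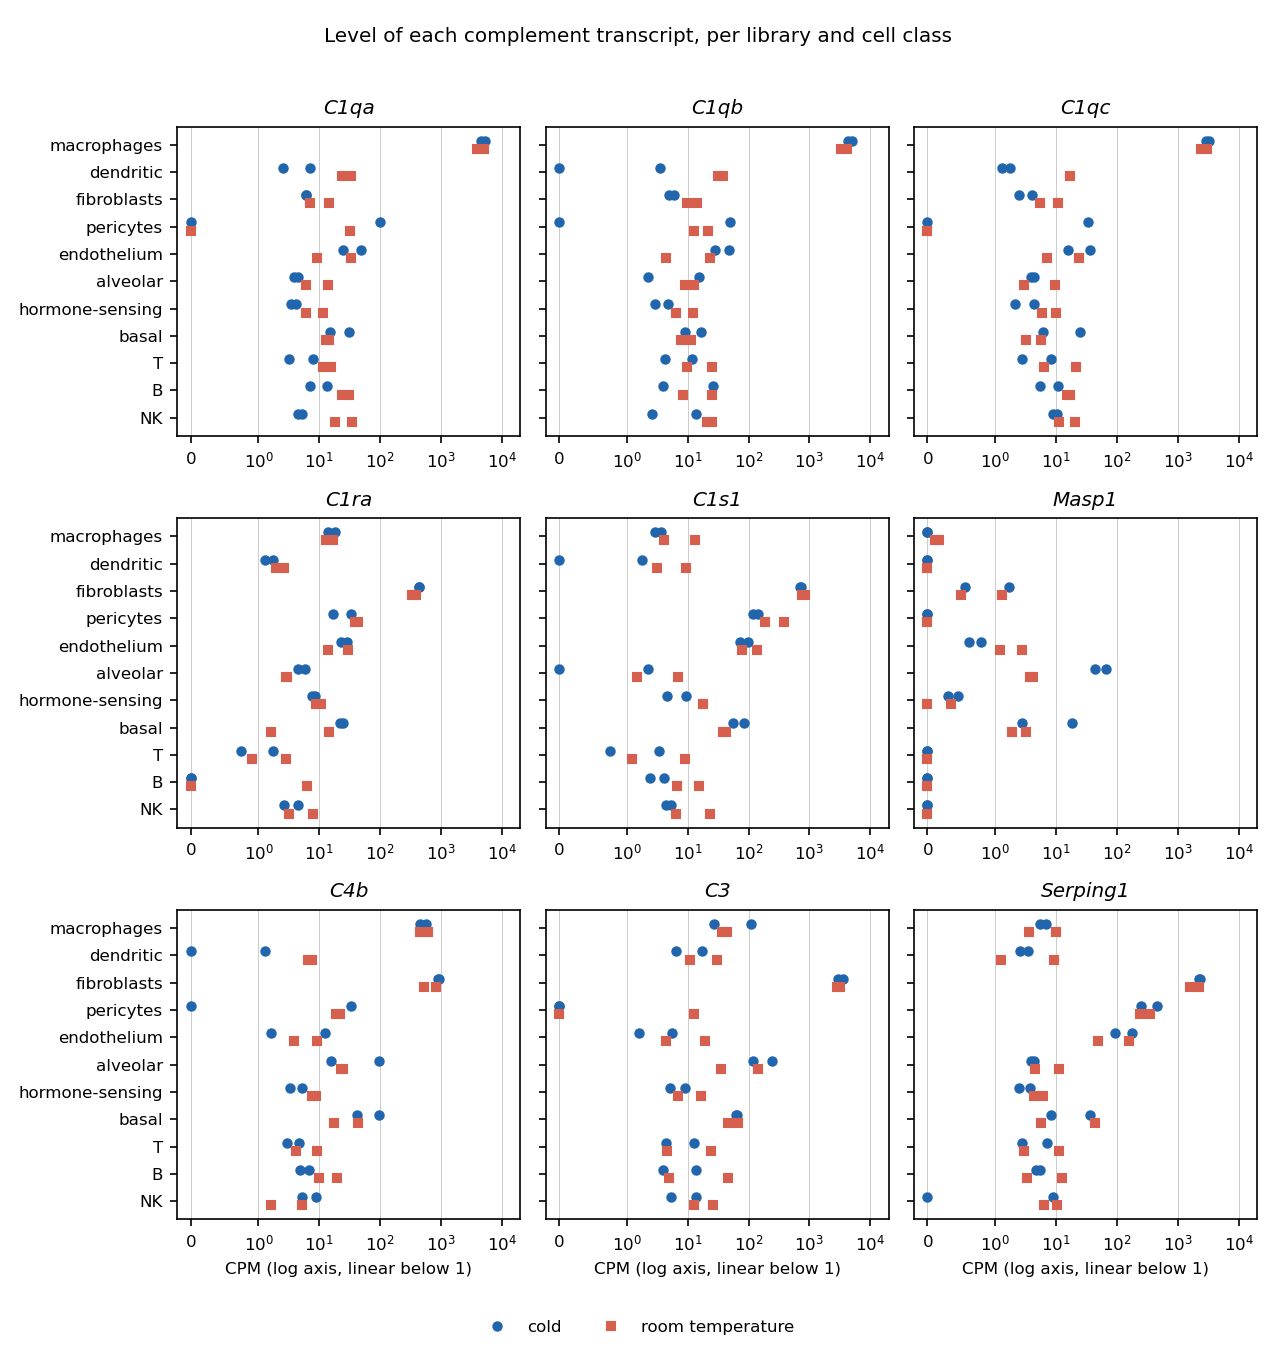
CPM of each gene (horizontal log axis, linear below 1) by library in 11 of the 13 classes (rows), cold (circles) above room temperature (squares). Macrophages stand apart for the C1q chains, fibroblasts for C1ra, C1s1, C3 and Serping1, both for C4b, and alveolar cells for Masp1.

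C1ra and C1s1, the proteases that C1q carries, were fibroblast transcripts with no called change. C1ra had 439 and 437 CPM in cold fibroblasts, against 385 and 335 CPM at room temperature. C1s1 had 694 and 725 CPM in cold, against 840.4 and 764 CPM at room temperature. Both pairs of groups are apart, C1ra being higher and C1s1 lower in the cold libraries. This is a description given without the share of all genes that do not overlap. The log2 fold changes were 0.32 ± 0.14 and -0.14 ± 0.14 (adjusted p 0.274 and 0.635, edgeR), in a class in which 2.98% of 11600 genes were called. Among the other named classes pericytes had the highest C1s1, with 143 and 116 CPM in cold, against 184 and 387 CPM at room temperature, from 4 to 14 cells a library. C1s1 in hormone-sensing cells was 4.55 and 9.45 CPM in cold, against 17.7 and 18.0 CPM at room temperature (-1.33 ± 0.34, adjusted p 0.256, edgeR). One cluster, led by Wfdc2, Krt18 and Ptn, held 89.3% and 70.2% of that class in cold, against 23.5% and 59.1% at room temperature. Within it C1s1 had 4.70 and 5.84 CPM in cold, against 29.2 and 19.9 CPM at room temperature (-2.22 ± 0.28, adjusted p 0.317, edgeR). In macrophages C1s1 had 3.70 and 2.96 CPM in cold, against 13.2 and 4.12 CPM at room temperature (-1.40 ± 0.59, adjusted p 0.414, edgeR), and was called without room-temperature replicate 2 (adjusted p 0.00590), with no low-count filter (0.00485) and with the replicate block (0.00277). C1ra has the near-identical copy C1rb and C1s1 the copy C1s2, and reads that fit both may have been lost or split.

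Serping1, the inhibitor of these proteases, had no called change in the fibroblast class. It had 2337 and 2274 CPM in cold fibroblasts, against 2205 and 1595 CPM at room temperature (0.32 ± 0.20, adjusted p 0.446, edgeR). The groups do not overlap, but the gap between the room-temperature libraries is larger than the gap between groups. Among the other named classes pericytes had the highest mean levels, with 252 and 448 CPM in cold, against 241 and 344 CPM at room temperature. Vascular endothelium had 94.7 and 175 CPM, against 157 and 49.6 CPM. Over the whole library Serping1 had 308 and 249 CPM in cold, against 540.0 and 192 CPM at room temperature, following the fibroblast share of cells.

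C3, which the whole cascade leads to, was also even between the groups in fibroblasts. It had 2949 and 3570.1 CPM in cold, against 3128 and 2856 CPM at room temperature (0.16 ± 0.17, adjusted p 0.643, edgeR), and the groups overlap. In macrophages C3 had 27.2 and 111 CPM in cold, against 44.2 and 36.4 CPM at room temperature, and cold replicate 2 alone was high (0.71 ± 0.53, adjusted p 0.656, edgeR). Without that library the log2 fold change was -0.58. In the Chil3/Il1b cluster C3 had 194 and 325 CPM in cold, against 103 and 148 CPM at room temperature (1.11 ± 0.32, adjusted p 0.242, edgeR). C4b, the other protein of the thioester family, had 923 and 887 CPM in cold fibroblasts, against 819 and 532 CPM at room temperature (0.46 ± 0.23, adjusted p 0.327, edgeR). In macrophages it had 564 and 449 CPM, against 620.3 and 452 CPM (-0.09 ± 0.20, adjusted p 0.916, edgeR). C4b has the near-identical copy C4a, and reads that fit both may have been lost or split.

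The fibroblast class had a different make-up in cold. A cluster led by Cxcl13 held 60.0% and 48.9% of its cells in cold and 2.10% and 1.45% at room temperature, and was not tested. Clusters led by Pi16 and by Postn held most of the class at room temperature. The Cxcl13 cluster had 947 and 990.2 CPM of C4b, 3089 and 3695 CPM of C3 and 2366 and 2373 CPM of Serping1 in cold. Its 28 and 5 cells at room temperature had 1448 and 1539 CPM of C4b. Fibroblast clusters present in each library were compared within themselves. In the Postn cluster, rich in Col1a1 and Col3a1, C4b had 775 and 831 CPM in cold, against 387 and 466 CPM at room temperature. Serping1 had 1819 and 1609 CPM in cold, against 1042 and 1044 CPM at room temperature. C4b rose there by 1.04 ± 0.17 and Serping1 by 0.85 ± 0.17 on the log2 scale (adjusted p 0.00849 and 0.0227, edgeR). C3 had 1423 and 1806 CPM in cold, against 1035 and 1199 CPM at room temperature, and was not called (0.65 ± 0.18, adjusted p 0.0670, edgeR). C1ra gave 0.45 ± 0.17 (adjusted p 0.186) and C1s1 0.03 ± 0.17 (0.956) by edgeR. The groups do not overlap for C4b, Serping1, C3 or C1ra, a description given without the share of all genes that do not overlap. So 2 of 6 members tested rose, where 2.37% of 8619 genes were called higher in cold. Both calls were kept without cold replicate 2 and lost without any other library, at adjusted p 0.0830 to 0.121 for C4b and 0.132 to 0.234 for Serping1 (edgeR), with 66 to 342 cells a library.

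In the largest Pi16 cluster no member was called, with 0.801% of 8494 genes called. Its C4b had 667 and 572 CPM in cold, against 850.3 and 568 CPM at room temperature (-0.26 ± 0.19, adjusted p 0.613, edgeR), and its Serping1 2403 and 2154 CPM, against 2383 and 1781 CPM (0.07 ± 0.15, adjusted p 0.904, edgeR). The cold effect in the Postn cluster exceeded that in the Pi16 cluster by 1.29 ± 0.23 for C4b, 0.76 ± 0.17 for Serping1 and 0.65 ± 0.16 for C3 (adjusted p 0.00229, 0.0221 and 0.0356, edgeR). This test was added after the cluster values had been seen, and 1.78% of 9381 genes were called in it. Without room-temperature replicate 1 no member was called in it, and without room-temperature replicate 2 C3 was not. In a cluster led by Sfrp2 and Ogn no member was called, with 1.13% of 5120 genes called, nor did any member's cold effect there differ from that in the Pi16 cluster by edgeR (0.357% of 6995 genes called).

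**Figure D4:**
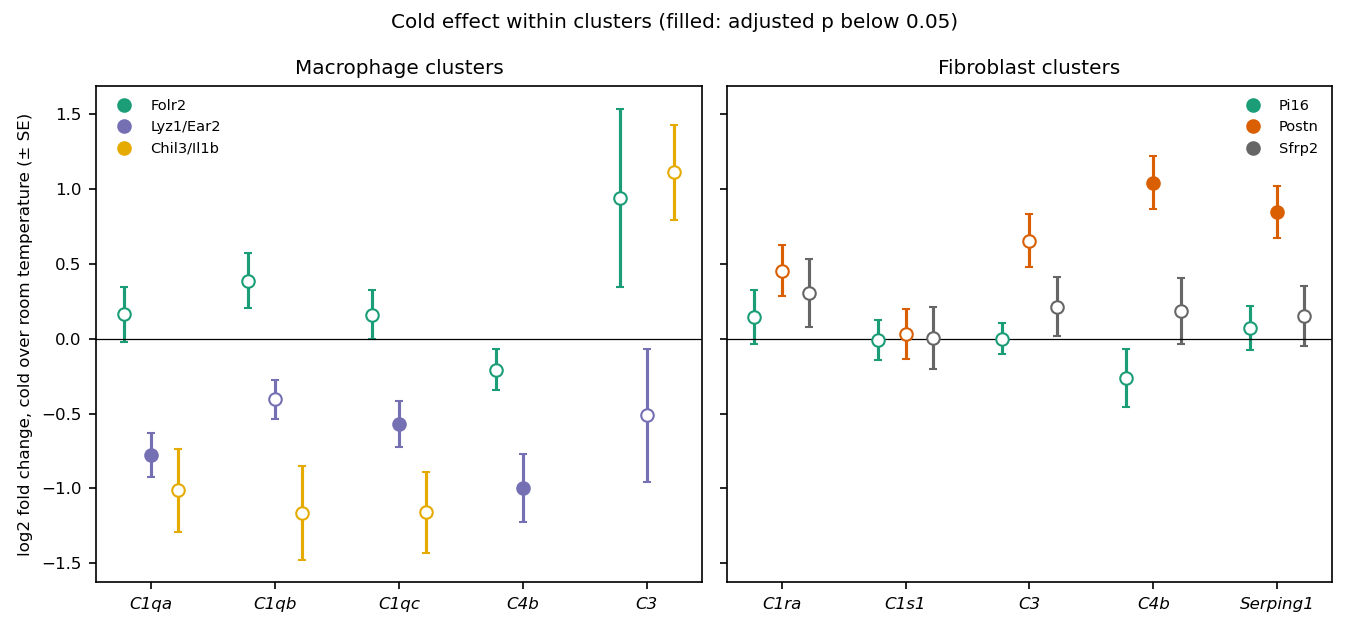
Log2 fold change, cold over room temperature, with its SE (vertical axis) for members in 3 macrophage clusters (left) and 3 fibroblast clusters (right), and filled points where edgeR's adjusted p was under 0.05. C1qa, C1qc and C4b in the Lyz1/Ear2 cluster lie below 0, and C4b and Serping1 in the Postn cluster above it.

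In the epithelium the member that changed was Masp1, which had its highest level in alveolar luminal progenitors, the lineage that gives milk-secreting cells. It had 65.7 and 43.8 CPM in cold alveolar cells, from 34 and 20 UMIs. At room temperature it had 4.18 and 3.71 CPM, from 3 and 5 UMIs. Both cold libraries lie far above both room-temperature ones, and Masp1 rose by 3.67 ± 0.47 on the log2 scale (adjusted p 0.0168, edgeR). It was the 1 member called of 3 tested there, where 0.163% of 7377 genes were called higher in cold. Masp1 met edgeR's low-count filter through its cold libraries alone, so its being tested depended on the group in which it is high. A Masp1 UMI was found in 22.7% and 18.3% of cold alveolar cells, against 5.56% and 3.57% of those at room temperature. Thinned to 2000 UMIs a cell, the shares were 13.5% and 10.3%, against 0% and 1.20%, where the 0 of 47 cells allows up to 6.38%. The cold alveolar cells were shallower, with medians of 3383 and 4241 UMIs, against 12298 and 11361 at room temperature, and the part of depth in the level was not tested. The call was lost at a finer clustering (3.25 ± 0.57, adjusted p 0.151, edgeR).

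A cluster carrying both luminal marker sets, with a median of 42958 UMIs a cell, stood between the luminal classes and belongs to neither. It gave 117 and 26 Masp1 UMIs in cold, against 6 and 3 at room temperature. Its level was 9.25 and 5.41 CPM, against 4.08 and 0.519 CPM at room temperature (2.57 ± 0.77, adjusted p 0.170, edgeR; 0.06% of 11666 genes called). A Masp1 UMI was found in 26.4% and 17.1% of its cold cells, against 9.09% and 1.69% at room temperature. Thinned to 2000 UMIs a cell, the shares were 2.07% and 0.901%, against 3.03% and 0%, and the groups overlapped. Basal cells, not tested, had 18.1 and 2.78 CPM in cold, against 3.22 and 1.91 CPM at room temperature, and hormone-sensing cells at most 0.453 CPM in any library. Macrophages had no Masp1 UMI in cold, where 3 counts stand for 0.652 and 1.11 CPM, and 1 UMI in each room-temperature library. Epithelium thus gave 93.6% and 94.6% of 172 and 56 Masp1 UMIs in cold, against 65.4% and 47.6% of 26 and 21 UMIs at room temperature. Over the whole library Masp1 was not called by edgeR (2.21 ± 0.52, adjusted p 0.131) and was called by DESeq2 (adjusted p 0.00945).

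Alveolar cells were also the luminal class with the highest C3 and C4b. C3 had 119.8 and 245 CPM in cold, against 34.9 and 142 CPM at room temperature, with room-temperature replicate 1 alone low (0.91 ± 0.53, adjusted p 0.584, edgeR). C4b had 94.7 and 15.3 CPM, against 22.3 and 24.5 CPM, with cold replicate 1 alone high (1.14 ± 0.58, adjusted p 0.527, edgeR). Hormone-sensing cells had 5.17 and 9.07 CPM of C3 in cold, against 16.3 and 6.81 CPM at room temperature. The cold effect in alveolar cells minus that in hormone-sensing cells was 1.73 ± 0.63 for C3 and 1.85 ± 0.55 for C4b (adjusted p 0.373 and 0.188, edgeR; 0.857% of 11779 genes called). Across the 6 pairs of the macrophage, fibroblast, hormone-sensing and alveolar classes, edgeR called no member's difference in 52 tests, with 18 at an unadjusted p under 0.05. Of all genes it called 0.243% in fibroblasts against macrophages, 0.0225% in hormone-sensing cells against macrophages and 0.0262% in alveolar cells against macrophages. Against fibroblasts it called 0.281% in hormone-sensing and 0.307% in alveolar cells. Among these pairs the smallest share of genes at an unadjusted p under 0.05 was 688 of 11440, in alveolar cells against macrophages. The largest was 1613 of 12763, in fibroblasts against macrophages. DESeq2 called 4, C1qb in fibroblasts against macrophages and all 3 C1q chains in hormone-sensing cells against macrophages.

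**Figure D5:**
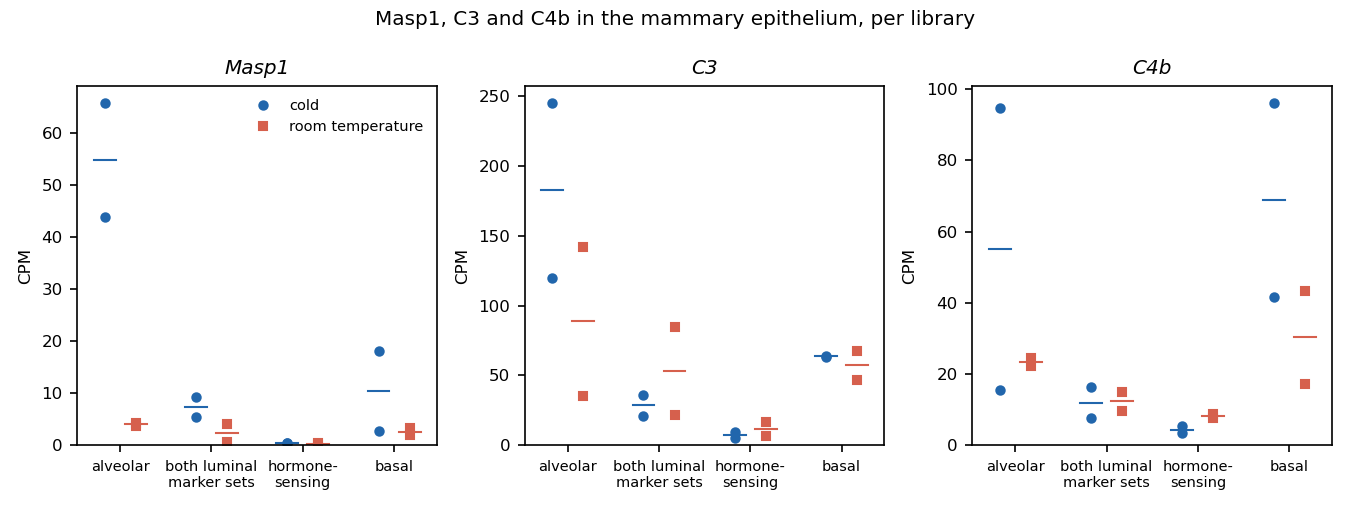
CPM of Masp1, C3 and C4b (vertical axes from 0) in alveolar cells, the cluster with both luminal marker sets, hormone-sensing cells and basal cells, cold (circles) left of room temperature (squares), 1 point a library with a line at the mean. Masp1 in alveolar cells lies at 43.8 to 65.7 CPM in cold and 3.71 to 4.18 CPM at room temperature.

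The other complement genes gave a frame for the members. Of 49 listed, 47 were in the files, and 23 were tested in macrophages, 19 in fibroblasts, 19 in hormone-sensing and 5 in alveolar cells. Of these none was called in a class by edgeR (4, 8, 5 and 1 at an unadjusted p under 0.05). Over all genes, 1307 of 11013, 2234 of 11600, 1806 of 12948 and 765 of 7377 had such a p. The median log2 fold changes of the other complement genes were 0.06, -0.12, -0.41 and 0.36, beside 0.00, 0.00, -0.02 and -0.03 over all genes tested. The members' medians were 0.13 over 8 genes, 0.01 over 8, -1.06 over 8 and 1.14 over 3. The alveolar median is the value of C4b, for which cold replicate 1 alone was high. The 8 members in hormone-sensing cells had mean levels of only 4.18 to 12.4 CPM and include the C1q chains, which go together. None of those 8 was called. By level, macrophages led in Cfp, properdin of the alternative pathway, with 1148 and 984 CPM in cold, against 1416 and 1002 CPM at room temperature. They also led in Fcna, a ficolin of the lectin pathway, with 1479 and 1099 CPM, against 1233 and 842 CPM. Within clusters some of the listed genes passed. The number of listed genes tested in each cluster is not given, so these calls cannot be set against the share of all genes. Fits with a library left out are not given for them either. In the Postn cluster C2, cut by C1s, had 253 and 183 CPM in cold, against 136 and 122 CPM at room temperature, and rose by 0.90 ± 0.21 on the log2 scale (adjusted p 0.0417, edgeR). C1qbp rose there by 0.84 ± 0.20 (adjusted p 0.0443, edgeR). In the Sfrp2 cluster C7, of the terminal pathway, had 68.9 and 59.3 CPM in cold, against 11.3 and 7.85 CPM at room temperature, and rose by 2.57 ± 0.40 (adjusted p 0.00148, edgeR). That cluster held 38 and 36 cells in cold and 226 and 20 at room temperature, so the lowest value rests on 20 cells. In the Lyz1/Ear2 cluster Itgam, a chain of complement receptor 3, rose by 0.43 ± 0.12 (adjusted p 0.0359, edgeR), where 1.74% of genes were called higher in cold. In the Postn cluster 2.37% of genes were called higher. In the Sfrp2 cluster 27 of 5120 genes were called higher, and 1.13% in either direction.

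Across the 13 classes the members formed groups by their mean levels, given as a description over classes that share libraries. Pearson's r between the C1q chains was 0.986 to 0.987, and between C1ra, C1s1 and Serping1 0.882 to 0.910 (on log2 CPM). For C4b it was 0.549 to 0.564 with the C1q chains, 0.638 with C1ra, 0.334 with C1s1, 0.446 with Serping1 and 0.740 with C3. Among 10459 genes outside the complement lists, those most like C1qa were Folr2, F13a1 and Cd209g (r 0.973, 0.969 and 0.966). Those most like C1ra were Pcolce, Cd248 and Fap (0.943, 0.941 and 0.928), and those most like Masp1 were Anxa8, Ccdc129 and Papln (0.990, 0.980 and 0.971).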

How the data were processed

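Single cells of the stromal vascular fraction were profiled in 2 cold and 2 room-temperature libraries. The deposited counts are whole-number UMIs per gene and barcode in 10x matrices. The submitters' processing notes name Cell Ranger 3.0.2, Seurat and the builds mm10 and GRCm38, with no role given. Only the deposited counts were used. Kept barcodes had 500 genes or more and a mitochondrial share below 15%, and those with the highest scores against simulated doublets were removed, at 0.8% per 1000 cells. Cells were clustered on 2000 variable genes, 30 principal components and 15 neighbours (Leiden resolution 1, leidenalg 0.10.2, Python 3.11.15), without complement genes. Clusters were named from at least 3 markers, by the type whose markers stood highest. A cluster was kept apart where the next type came within 1 log2 unit. Some named clusters thus also carry markers of another type, the alveolar one among them (Prlr, Cited1 and Foxa1). Raw UMIs were summed per library and class or cluster with at least 20 cells in each library and compared by the two-sided quasi-likelihood test of edgeR 4.0.16 (R 4.3.3), after its default low-count filter and TMM scaling, with Benjamini-Hochberg adjustment. The test was also run on counts simulated for the fibroblast and alveolar classes alone, with the same spread for every gene. That run does not show how the test behaves in small clusters. DESeq2 1.42.0, other filters, scaling and clustering, a replicate block and leaving out each library were alternatives. The smallest p of an exact permutation test of 2 against 2 libraries is 0.333, so shares have no test. Intervals and limits from 3 counts cover counting error only. Statements that groups overlap or do not overlap describe the libraries and are no test. No share of all genes is given beside them. Likeness used genes at 20 CPM or more in a class, with a pseudocount of 5 CPM. The rule named all 9 members wherever tested, and other complement genes where called or at the highest level of their list, except 1 gene not reported here. Member tests not printed were not called in edgeR's main fit, but some were called with the alternatives. The members, lists and tests were chosen with earlier results of these data known.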

Additional observations from a re-analysis of the deposited data

Results flagged for a closer look

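In 9 cases a member's cold effect differed between clusters of the same class, by edgeR's quasi-likelihood test of the difference (Benjamini-Hochberg adjustment). This comparison was added after the cluster values had been seen. Of all genes, 1.12% were called for Lyz1/Ear2 minus Folr2, 0.365% for Chil3/Il1b minus Folr2 and 1.78% for Postn minus Pi16. For Sfrp2 minus Pi16, 0.357% were called, and no member was. Some of the 9 calls were lost with a library left out, as given above. For the Lyz1/Ear2 macrophage cluster minus the Folr2 cluster the differences on the log2 scale were -1.03 for C1qa (adjusted p 0.00381), -0.88 for C1qb (0.00715) and -0.81 for C1qc (0.0212). For the Chil3/Il1b cluster minus the Folr2 cluster they were -1.21 for C1qa (0.0363), -1.59 for C1qb (0.00996) and -1.38 for C1qc (0.0188). For the Postn fibroblast cluster minus the Pi16 cluster they were 1.29 for C4b (0.00229), 0.76 for Serping1 (0.0221) and 0.65 for C3 (0.0356).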

How the results depend on the processing

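Within classes edgeR called 1 of 49 member tests. The counts below are of members only, without the share of all genes called at each setting, so they cannot show whether members stand out. The number of member tests differs between settings, and with no low-count filter more than 49 were tested within classes. There were 17 calls with no low-count filter, 2 with DESeq2, 2 at Leiden resolution 2 and 2 to 9 with a library left out. With the replicate block there were 9. The labels do not say that the numbers pair libraries, and same-numbered libraries correlated at 0.32 in macrophages, 0.29 in fibroblasts, -0.08 in hormone-sensing and -0.37 in alveolar cells. With the numbers crossed, the block also gave 1 call in alveolar cells. In the whole library the 0 calls became 3 with DESeq2 and 0 to 2 with a library left out. Within clusters the 6 calls became 6 to 10, and between clusters the 9 became 4 to 9, with a library left out. Between classes the 0 calls became 10 with no filter, 4 with DESeq2 and 0 to 8 with a library left out. The cause was not tested. With doublets kept, the macrophage share was 95.8% in cold and 96.3% at room temperature for C1qa, 94.7% and 95.7% for C1qb, and 95.7% and 95.9% for C1qc. The fibroblast share was then 86.5% of C1ra in cold and 94.2% and 95.1% of Serping1. A looser filter gave 98.6% of C1qa at room temperature. Resolution 2 gave 98.6% in cold and 98.5% at room temperature for C1qb, and 98.4% and 98.5% for C1qc. Thinned to 2000 UMIs, 52.5% of fibroblasts had C1ra, 77.0% C1s1, 54.1% C4b and 93.4% Serping1. Of 436 alternatives to 47 log2 fold changes, 388 kept direction and side of the threshold, 21 gained a call, 10 lost one and 17 changed sign. With a library left out, values in macrophages ran from -0.053 to 0.36 for C1qa, -0.091 to 0.34 for C1ra, -0.58 to 1.44 for C3, -0.32 to 0.18 for C4b and -0.72 to 0.79 for Serping1. At resolution 2 they were -0.0041 for C1qa and -0.028 for C1ra. The range was -1.23 to 0.16 for C3 in hormone-sensing and -0.68 to 1.89 for C4b in alveolar cells. In the whole library it was -0.85 to 0.37 for C1ra, -1.005 to 0.15 for C3, -1.07 to 0.077 for C4b and -0.99 to 0.57 for Serping1. It was -1.08 to 0.47 for C3 in the Lyz1/Ear2 cluster and -0.038 to 0.094 for C1s1 in the Postn cluster.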
